A study of Mus musculus with 2 samples.

Results

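Regions between genes that both Hdac1 and Hdac2 occupied in mouse nephron progenitor cells are described here as candidate distal elements. The members are Hdac1 islands, stretches of the genome with more ChIP reads than background, on chromosomes 1 to 19. They were chosen by a width below 5.0 kb, at least 1 bp shared with an Hdac2 island and no overlap with a protein-coding gene widened by 1.0 kb on both sides (RefSeq, mm10). This left 2916 of 30182 Hdac1 islands, or of 28318 on these chromosomes below the width limit. Overlap and position chose the members, so neither is a finding.

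The cells came from wild type E16.5 mouse kidneys and were kept in culture before they were fixed with formaldehyde. The chromatin immunoprecipitations differed in antibody amount as well as in antibody, with 0.5 µg against Hdac1 but 1 µg against Hdac2. There was 1 library per antibody, made by PCR amplification from 500 pg of DNA, and no replicate, so no value below has a replicate check and no test between the libraries was possible. Both libraries share genotype, age and cell type. Island lists do not measure RNA or the share of a cell type, so the labelled cell type could not be checked against its markers.

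Hdac1 and Hdac2 are class I histone deacetylases. They remove acetyl groups from histone tails and work as the catalytic core of the Sin3, NuRD and CoREST complexes, which transcription factors bring to promoters and to distal enhancers. Nephron progenitors are the cap mesenchyme cells that renew themselves beside the ureteric bud and form the nephron's epithelium, and many of their regulators lie in wide gene-free stretches.

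Annotated genes of other kinds overlapped 782 members (26.8%), lncRNA genes 649 of these. Of 7105 lncRNA genes between protein-coding genes, 8.53% overlapped a member and 13.5% an Hdac1 island without Hdac2. Over all 16998 genes of other kinds there, the shares were 4.81% and 6.69%. The lncRNA genes were also longer, with a median of 8694 bp against 1659 bp over all kinds. Sequences of the miRNAs and lncRNA starts are shown first. The RefSeq sequence table of GRCm38.p6, the assembly also called mm10, held 275 miRNA hairpins between protein-coding genes. Of these, 10 overlapped a member and 17 lay on or within 1.0 kb of one, beside 11 members in all. The best known mature forms follow, with the seed (bases 2 to 8, which pair with targets) in capitals. The first 6 belong to the miR-17 cluster, and shared seeds stand next to each other.
miR-17-5p: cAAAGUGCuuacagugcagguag
miR-20a-5p: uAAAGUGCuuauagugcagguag
miR-18a-5p: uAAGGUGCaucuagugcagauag
miR-19a-3p: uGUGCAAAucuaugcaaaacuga
miR-19b-3p: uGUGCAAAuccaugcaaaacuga
miR-92a-3p: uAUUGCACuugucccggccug
let-7i-5p: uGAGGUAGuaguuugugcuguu
miR-22-3p: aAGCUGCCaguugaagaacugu
miR-193a-3p: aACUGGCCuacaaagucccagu
miR-210-3p: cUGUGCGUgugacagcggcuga
miR-129-5p: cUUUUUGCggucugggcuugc
miR-7b-5p: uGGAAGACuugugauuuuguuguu

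The member at the miR-17 cluster, chr14:115040001-115043800, had one of the lowest Hdac1 values of the set. Its value was 9.24e-202 in the Hdac1 list and 1.24e-17 in the Hdac2 list. A value here is the p-value or q-value the authors deposited for an island, which ranks islands within a list but not between lists. The Hdac1 island ends within the cluster: it covers the Mir17 hairpin, while Mir18 lies 51 bp, Mir19a 200 bp, Mir20a 357 bp, Mir19b-1 505 bp and Mir92-1 627 bp beyond its edge. The Hdac2 island that gave the second value, chr14:115038801-115042400, ends before the Mir17 hairpin, which starts at 115043671, and reaches no hairpin of the cluster. These miRNAs are made from one primary transcript and are known for promoting proliferation. The nearest protein-coding gene, Gpc5, began 48.4 kb away.

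The let-7i hairpin lay on a 4.4 kb member with values of 2.17e-96 for Hdac1 and 1.40e-06 for Hdac2. Let-7 miRNAs are known for restraining fetal growth programmes. Mir193a lay on a 2 kb member (1.56e-78 and 2.72e-07 for Hdac1 and Hdac2), and Mir210, a miRNA known for its response to low oxygen, on another (1.12e-30 and 6.56e-05). The member at Mir129-2 and its antisense partner Mir129b had values of 3.52e-16 and 1.51e-08 in the 2 lists. Mir7b lay 588 bp from a member of 1.4 kb whose values were 1.54e-124 for Hdac1 and 1.61e-21 for Hdac2. The gene table holds more miRNAs than the sequence table, which was used for chromosomes other than 18, and in it 11 of 319 miRNA genes between protein-coding genes, or 3.45%, overlapped a member, beside 4.81% over 16998 annotated genes of other kinds between protein-coding genes. The miRNA share was thus near the share over all kinds, but the genes differ in length. The median gene length was 84 bp for miRNAs, 1659 bp over all kinds and 8694 bp for lncRNAs. A longer gene has more room to overlap a member, and the part of length in these shares was not tested.

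Of 7103 starts of long noncoding RNAs (lncRNAs) between protein-coding genes, 213 (3.00%) lay on members and 325 (4.58%) on Hdac1 islands without Hdac2. The starts on members lay on 185 of them, 6.34% of the set, and belonged to 192 genes. Their promoters are printed as the second set of sequences because the starts lie on members, though a printed stretch can run past the island's edge, as at Lncpint. Each runs from 250 bases before to 50 bases after the start, in the direction of the gene, and capitals mark the CCAAT box (CCAAT), the GC box (GGGCGG), the E box (CACGTG) or the TATA box (TATAAA) on either strand, with overlapping matches merged. The first 3 are the lowest in Hdac1 value among starts with an established gene name. The other 2 were chosen because their members lie beside Hes1 and Pax2, genes of the developing nephron.
Mir22hg, chr11:75461289-75461588, plus strand: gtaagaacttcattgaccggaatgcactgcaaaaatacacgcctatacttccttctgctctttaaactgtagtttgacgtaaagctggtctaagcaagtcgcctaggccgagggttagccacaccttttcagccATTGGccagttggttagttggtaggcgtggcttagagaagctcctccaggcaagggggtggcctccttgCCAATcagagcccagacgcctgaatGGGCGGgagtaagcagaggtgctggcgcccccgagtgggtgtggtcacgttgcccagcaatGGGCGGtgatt
Snhg15, chr11:6528711-6529010, minus strand: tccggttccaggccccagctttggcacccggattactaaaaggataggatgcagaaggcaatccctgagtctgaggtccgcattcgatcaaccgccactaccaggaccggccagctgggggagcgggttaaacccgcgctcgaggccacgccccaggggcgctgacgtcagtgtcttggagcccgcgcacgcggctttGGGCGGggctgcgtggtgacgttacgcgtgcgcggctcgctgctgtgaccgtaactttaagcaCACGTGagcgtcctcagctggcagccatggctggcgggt
Lncpint, chr6:31218425-31218724, minus strand: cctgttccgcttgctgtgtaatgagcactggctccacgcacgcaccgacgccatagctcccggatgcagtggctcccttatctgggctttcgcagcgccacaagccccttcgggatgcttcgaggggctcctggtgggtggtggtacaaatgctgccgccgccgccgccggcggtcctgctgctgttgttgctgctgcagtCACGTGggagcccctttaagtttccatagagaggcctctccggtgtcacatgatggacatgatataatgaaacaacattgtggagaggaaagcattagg
4632428C04Rik, chr16:30008417-30008716, plus strand: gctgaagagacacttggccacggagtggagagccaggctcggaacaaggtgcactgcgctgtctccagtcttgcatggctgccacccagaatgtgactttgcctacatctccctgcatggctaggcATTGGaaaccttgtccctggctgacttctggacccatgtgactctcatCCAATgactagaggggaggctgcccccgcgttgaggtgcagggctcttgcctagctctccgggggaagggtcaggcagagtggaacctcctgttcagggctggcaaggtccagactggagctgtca
Gm41854, chr19:44672167-44672466, plus strand: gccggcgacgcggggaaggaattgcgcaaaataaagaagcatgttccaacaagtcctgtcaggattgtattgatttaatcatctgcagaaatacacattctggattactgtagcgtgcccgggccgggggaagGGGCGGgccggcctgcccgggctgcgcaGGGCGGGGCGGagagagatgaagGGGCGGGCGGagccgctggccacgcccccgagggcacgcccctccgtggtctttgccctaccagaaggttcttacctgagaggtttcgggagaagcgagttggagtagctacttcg

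The Mir22hg promoter, of the gene that hosts miR-22, held 2 CCAAT and 2 GGGCGG matches and a CpG ratio (observed over expected) of 0.541. Its member was 3.6 kb wide with values of 3.96e-146 in the Hdac1 list and 4.33e-06 in the Hdac2 list. The Snhg15 promoter had a CpG ratio of 0.927 with 1 GGGCGG and 1 CACGTG match, and its member had values of 9.63e-80 and 1.09e-08. Lncpint, a transcript known from the p53 response, had a CpG ratio of 0.698 and a member with values of 6.77e-72 and 9.62e-11. All 3 members were low in Hdac1 value, while in the Hdac2 list Mir22hg and Snhg15 lay above the members' median of 4.48e-09 and Lncpint below it.

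The 2 promoters beside nephron genes differed from each other in sequence. The start of 4632428C04Rik had a CpG ratio of 0.228 and no GGGCGG match, and its 1.6 kb member lay 55.6 kb from Hes1, a Notch effector (1.89e-41 for Hdac1, 1.04e-11 for Hdac2). Gm41854 had a CpG ratio of 0.889 and 5 GGGCGG matches. Its 4.6 kb member lay 73.2 kb from Pax2, which encodes a transcription factor needed for the nephron lineage (2.51e-42 for Hdac1, 2.90e-12 for Hdac2).

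Over all 213 lncRNA starts on members, the median CpG ratio was 0.456, beside 0.368 for 325 starts on Hdac1 islands without Hdac2 and 0.198 for 6382 starts on no island. A ratio of at least 0.6 was found for 35.2% of the starts on members, 22.2% of those on Hdac1 islands without Hdac2, 26.2% of those on other islands and 3.54% of those on no island. GGGCGG on either strand was found at 38.5%, 28.9%, 23.5% and 6.77% of these starts in the same order, and at 47.0% of 20085 protein-coding starts. CCAAT was found at 32.4% of the starts on members, 27.1% of those on Hdac1 islands without Hdac2 and 38.6% of those on no island. A match is a description of the letters and says nothing of a factor. Of the members, 1928 (66.1%) had no annotated gene of any kind within 1.0 kb.

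The rule barred distances up to 1.0 kb, and gene-free sequence itself reached far from genes. Of its 1386 Mb, 264 Mb lay 100 to 250 kb from a gene, 191 Mb 250 to 500 kb and 201 Mb beyond 500 kb. The median distance from a member to the nearest protein-coding gene was 49.8 kb (quartiles 15.1 and 139 kb). Within 10 kb lay 526 members, and 966 (33.1%) lay 100 kb or more away. There were 94 members at 500 kb or more and 10 beyond 1 Mb. Hdac1 islands between genes without Hdac2 lay closer, with a median of 35.5 kb. Where strand was known, 1140 of 2258 members (50.5%, 95% Wilson interval 48.4 to 52.5) lay upstream of their nearest gene. Wilson intervals cover counting error only, and neighbouring islands are not independent.

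Density per length of gene-free sequence was read by the distance of the island's centre. The rule kept whole islands more than 1.0 kb from a gene, so centres just beyond 1.0 kb were barred. The 1 to 5 kb class therefore cannot be compared with the classes farther out. From 1 to 5 kb there were 1.87 members per Mb, from 5 to 10 kb 2.89, and the density held between 2.74 and 2.84 from 10 to 100 kb. It was 2.28 per Mb from 100 to 250 kb, 1.43 from 250 to 500 kb and 0.467 beyond 500 kb. The share of between-gene Hdac1 islands that overlapped Hdac2 was 26.1% (23.1 to 29.4) at 1 to 5 kb. It was 30.4% (27.5 to 33.5) at 5 to 10 kb and 38.4% (35.8 to 41.1) at 50 to 100 kb. Members were wider than Hdac1 islands without Hdac2 (medians 2 and 1.6 kb), so the rule also bears on the share at 1 to 5 kb. Hdac1 islands without Hdac2 had their highest density, 6.61 per Mb, at 5 to 10 kb.

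**Figure D1:**
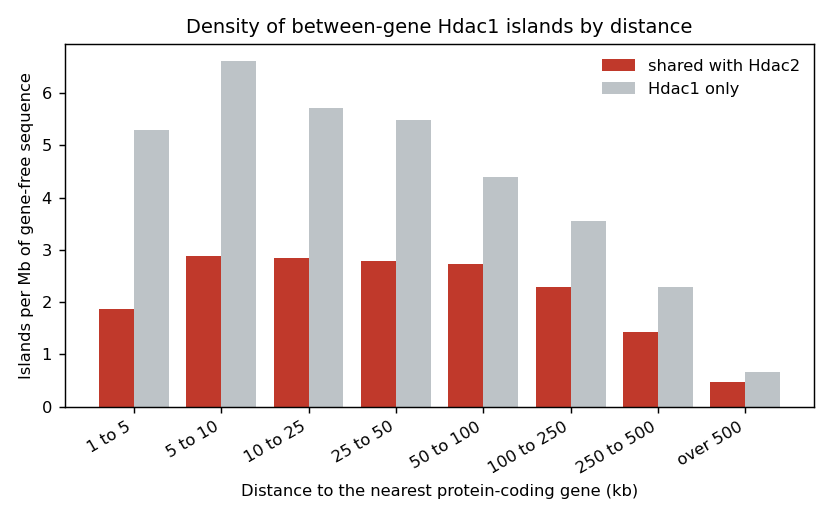
Islands per Mb of gene-free sequence (vertical axis) in classes of distance to the nearest protein-coding gene in kb (horizontal axis), for members and for between-gene Hdac1 islands without Hdac2. Members stay between 2.74 and 2.89 per Mb from 5 to 100 kb and fall to 0.467 beyond 500 kb.

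Of the 5 members farthest from any gene, 4 had Hdac1 values above the members' median of 4.24e-16. One of 0.4 kb lay 2102 kb from Pcdh9, with values of 2.48e-04 for Hdac1 and 7.16e-18 for Hdac2. A second of 0.4 kb lay 1675 kb from Dsel (2.96e-23 for Hdac1 and 4.02e-11 for Hdac2). The others lay nearest to Grik2, Pik3c3 and Stim2, at 1638, 1569 and 1425 kb.

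Members covered 6.23 Mb, 0.450% of 1386 Mb of gene-free sequence, and their median width was 2 kb (quartiles 1.4 and 2.8). Hdac2 covered 74.0% of their bases. In 918 members (31.5%) both edges lay within 400 bp of those of 1 Hdac2 island, and in 129 the outlines were identical. A single Hdac2 island lay under 2 or more members 53 times, so the Hdac2 values of such neighbours are the same measurement.

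The share of Hdac1 islands that overlapped Hdac2 was 34.9% between genes (33.9 to 35.9), 45.7% at gene ends, 31.4% inside genes and 38% over all 28318. That overlap chose the members and supports nothing on its own. Islands of like Hdac1 value can also be set side by side, again as a description. Among islands in the decile with the lowest Hdac1 values, 77 of 83 between genes overlapped Hdac2 (92.8%, 85.1 to 96.6), beside 88.1% (83.4 to 91.6) inside genes and 78.9% (77.2 to 80.4) of 2505 at gene ends. In the third decile the shares were 80.4% (76.0 to 84.1) between genes, 63.3% inside genes and 43.0% at gene ends. In the last decile they were 21.4%, 13.5% and 14.8%. Of 8354 between-gene islands 83 were in the first decile.

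**Figure D2:**
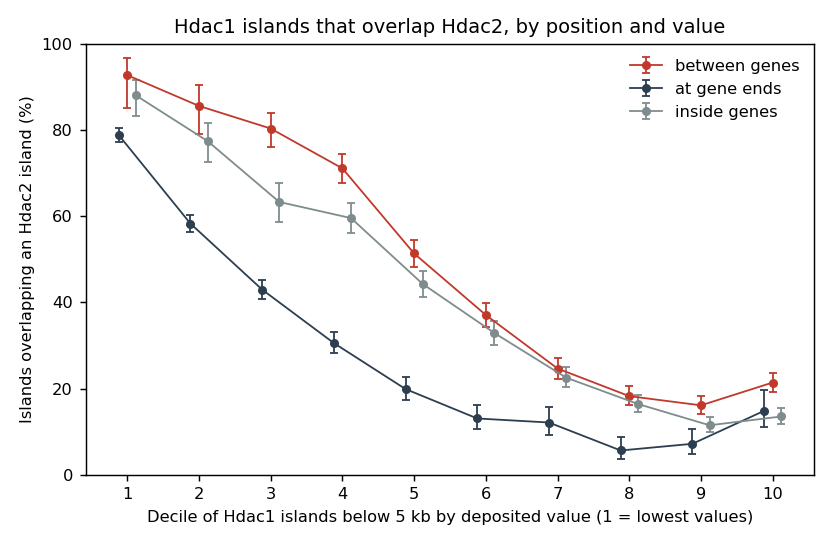
Percent of Hdac1 islands that overlap an Hdac2 island (vertical axis) by decile of Hdac1 value (horizontal axis, 1 for the lowest values), with 95% Wilson intervals that cover counting error only. Points run from 92.8% between genes, 88.1% inside genes and 78.9% at gene ends in the first decile to 21.4%, 13.5% and 14.8% in the last, and since overlap chose the members the plot is a description.

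Members ranked in the middle of the Hdac1 list and somewhat higher in the Hdac2 list. Their median Hdac1 value was 4.24e-16 (quartiles 4.39e-26 and 4.55e-10) and their median Hdac2 value 4.48e-09. The median rank from the top was 51.2% of the Hdac1 list and 43.6% of the Hdac2 list. Shared islands at gene ends had medians of 3.04e-65 for Hdac1 and 4.20e-08 for Hdac2, at 15.2% and 53.4% of the lists. So, in rank, members stood lower for Hdac1 and higher for Hdac2 than shared islands at gene ends. Over the 2916 members Spearman's rho between the values in the 2 lists was 0.449, a description of islands from 2 libraries of unknown depth.

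The members with the lowest Hdac1 values were narrow. Of the 10 lowest, 7 were 0.8 kb or less and 8 had the same outline in both lists. There were 6 listed at 0 for Hdac1, which were 0.8 to 1.2 kb wide and lay near Kcnk9, Ccnc, Nphp4, Smim17, Igsf21 and Atp23. The member 186 kb from Atp23 was also second in the Hdac2 list among members, with 6.38e-238. A 0.8 kb member 48.1 kb from Lhx2, a LIM homeobox gene, had values of 5.63e-228 for Hdac1 and 1.90e-20 for Hdac2. Among the 100 members lowest in Hdac1 value 33 were 0.8 kb or less, as were 33 of the 100 lowest between-gene islands without Hdac2. Of the 100 lowest shared islands at gene ends 1 was so narrow, and of those inside genes 9. Mapping at these positions was not tested.

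Several members with the lowest Hdac2 values lay beyond the last protein-coding gene of a chromosome. These were the members next to Fgf14, Mrgprd, Gm45871, Gm14496 and Tmem196, each 0.8 to 1.2 kb wide. Their Hdac2 values ran from 2.48e-185 at Fgf14 to 8.44e-102 at Tmem196, and their Hdac1 values from 8.64e-35 at Fgf14 to 2.58e-19 at Tmem196. In all, 21 members had no gene on one side. Another, 17.1 kb from Pdia4, was listed at 0 for Hdac2 and lay under an Hdac2 island of 41.4 kb (Hdac1 value 1.76e-26).

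**Figure D3:**
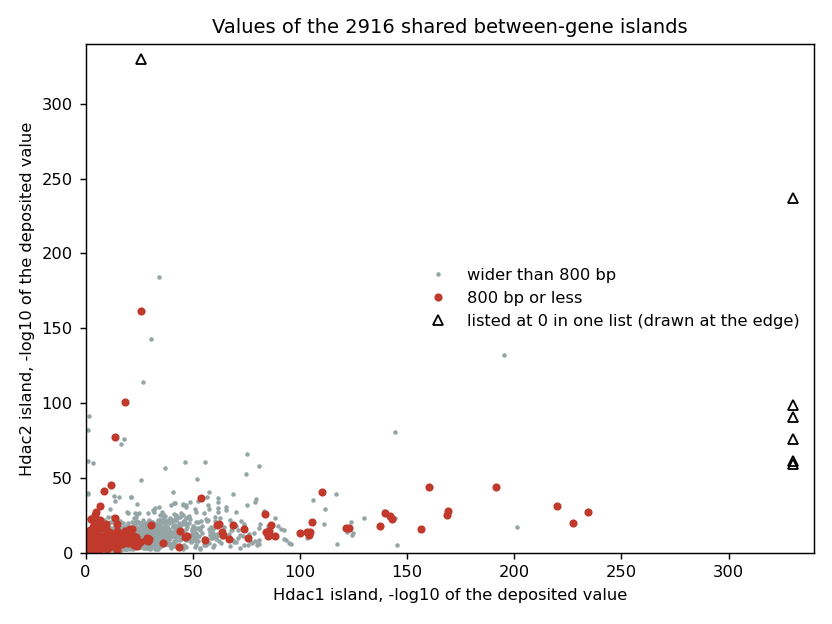
The -log10 of the deposited value in the Hdac1 list (horizontal) and in the Hdac2 list (vertical) for each of the 2916 members, with members of 800 bp or less in red and those listed at 0 in 1 list as triangles at the edge. Most points lie near the origin, and red points make up much of the far right.

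Most members stood alone. With neighbours joined across gaps of up to 12.4 kb, 2295 members (78.7%) had no neighbour, there were 222 pairs, and 52 runs held 3 or more (177 members). The largest run held 7 members over 48.6 kb beside Gas1. A run of 6 between Eapp and Snx6 spanned 29.6 kb, one of 5 beside Edn3, which encodes an endothelin, spanned 44 kb, and Wt1 had a run of 4 over 25.4 kb.

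The genes nearest to members were counted next. In all, 1832 of 20665 protein-coding genes (8.87%) were nearest to at least 1 member, 246 to at least 3 and 66 to at least 5. The count varied with room: genes with 200 kb or more of gene-free sequence closest to them (their territory) had a member in 41.7% of cases, and those with under 10 kb in 0.642%. Gm44812, a provisional gene between Nr2f2 and Mctp2, was nearest to 14 members. Gas1 and Zfp608 followed with 13 each, Adgrl2 with 12, Ccdc54 with 10, Klf6 and Sall1 with 9 each, and Cxcl12, Gm38821, Mctp2, Mtx2 and Sox4 with 8 each. This ranking depends on provisional genes. With symbols of the Gm and Rik kinds left out, LOC115488283 had 16, Nr2f2 14, Gas1 and Zfp608 13 each and Mctp2 11. The stretch between Gm44812 and Mctp2 held 21 members in 1493 kb, while the 424 kb between Gas1 and Dapk1 held 17, or 40.1 per Mb. Over all gene-free sequence there were 2.10 per Mb.

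Of 35 nephron progenitor genes, 18 (51.4%, 95% Wilson interval 35.6 to 67.0) were nearest to at least 1 member, 59 members in all, beside 8.87% of all genes. Their median territory was 173 kb, against 17.7 kb for all genes, and per length they had 5.34 members per Mb against 2.05. Hdac1 islands without Hdac2 were also denser beside them, at 7.24 per Mb against 3.83, so a higher density was not particular to members. The list and the members were chosen with earlier results of these data known, so the count is a description. Measured from island centre to gene start, without chromosome 18, 10 of the 35 genes had a nearest member, and 47 members lay nearest to them. Gene starts were held for 16457 of 20665 protein-coding genes on chromosomes 1 to 19, so a listed gene without a start could not be counted.

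Gas1 encodes a membrane co-receptor of hedgehog signalling. It had 13 nearest members, 3 to one side and 10 to the other, and 25 in its 2 flanks together. The lowest in Hdac1 value, chr13:60223601-60227800, was 4.2 kb wide and lay 46.1 kb away, with 1.72e-63 for Hdac1 and 8.10e-24 for Hdac2. Further out on the same side, members at 77.3 and 150 kb had Hdac1 values of 6.50e-47 and 1.63e-42. In the flank towards Tut7, a member 256 kb from Gas1 had 6.47e-61 for Hdac1 and 5.43e-22 for Hdac2. Both flanks thus held members low in both lists.

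Six2, the transcription factor that keeps progenitors from differentiating, had 1 nearest member, chr17:85747001-85750200. It was 3.2 kb wide, lay 58.7 kb from the gene, and had values of 2.33e-66 for Hdac1 and 1.45e-31 for Hdac2. No other member with a nephron progenitor gene as its nearest gene or its neighbour on the other side had a lower Hdac1 value. The same gene-free stretch up to Srbd1 held 4 further members at 169 to 200 kb from Six2, with Hdac1 values between 2.00e-20 and 5.62e-10. The last pair of these lay under 1 Hdac2 island of 1.72e-18.

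Sall1 encodes a zinc finger factor that binds the NuRD deacetylase complex and works with Six2. It had 9 nearest members and 11 in both flanks, most of them deep in the 1203 kb stretch towards Tox3. The member 366 kb from Sall1, chr8:89410601-89413600, had 2.17e-41 for Hdac1 and 1.26e-41 for Hdac2, the lowest value of this locus in each list. A 3.6 kb member at 525 kb had 1.54e-32 and 2.72e-09, and a 0.6 kb member at 562 kb had 2.48e-21 and 2.65e-16. The flank towards Cyld held 1, at 56.6 kb (5.07e-23 and 9.61e-16).

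Osr1, an early factor of the kidney field, had 3 nearest members, 1.70 to 317 kb away, and 10 in both flanks. Its closest member was weak, with 5.18e-06 for Hdac1 and 6.39e-05 for Hdac2. The strongest in the stretch, 649 kb from Osr1 and 136 kb from Nt5c1b, had 1.22e-39 and 2.65e-20. So the lowest values here lay nearer to the gene at the far end.

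Wt1, a zinc finger factor of progenitors and podocytes, had 7 members in the 110 kb up to Eif3m, 63.9 per Mb. Those nearest to Wt1 lay 13.7, 17.1, 24.9 and 35.5 kb away, and their Hdac1 values were 7.06e-05, 6.31e-11, 5.14e-07 and 5.06e-30. The last had an Hdac2 value of 1.06e-18. The other three lay 81.7 to 102 kb from Wt1, nearest to Eif3m, with Hdac1 values from 3.75e-34 to 4.04e-27.

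The Eya1 flank towards Msc gave a like picture. Eya1 encodes a phosphatase that acts with Six2, and Msc a basic helix-loop-helix factor. All 7 members in that 442 kb lay nearer to Msc, 254 to 405 kb from Eya1. Their Hdac1 values ran from 7.09e-38 to 1.97e-16 and their Hdac2 values from 1.35e-17 to 3.58e-07. On the other side of Eya1 there were 2, at 31.4 and 175 kb, with Hdac1 values of 7.92e-14 and 3.49e-13.

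**Figure D4:**
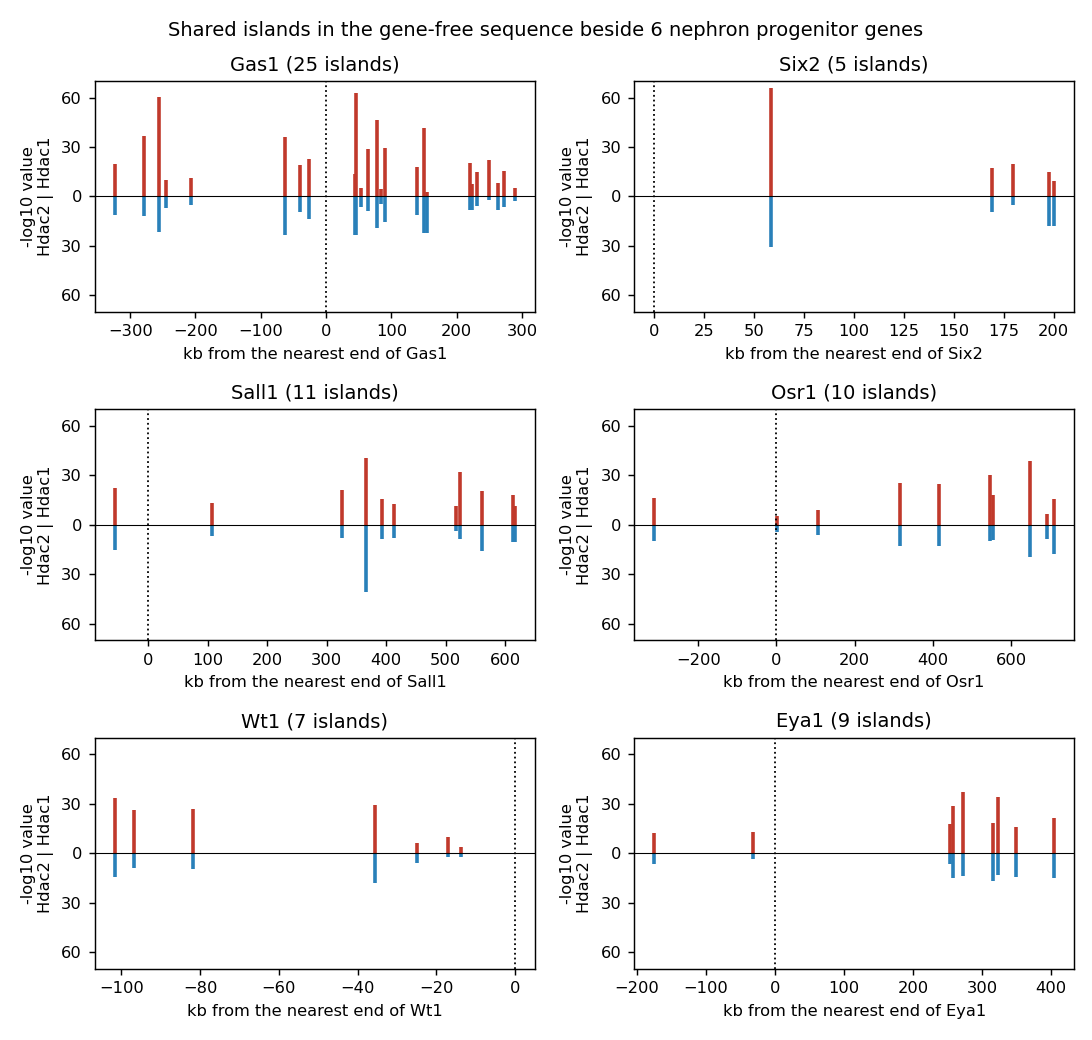
Members beside 6 nephron progenitor genes by distance in kb from the nearest end of the gene (dotted line), with -log10 of the Hdac1 value upward in red and of the Hdac2 value downward in blue. The tallest red bar beside Six2 is the member at 58.7 kb, and the longest bars of both colours beside Sall1 are those at 366 kb.

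Gdnf, the ligand that draws the ureteric bud into branching, had 4 nearest members. The farthest, at 184 kb, was 4.6 kb wide and had 1.34e-40 for Hdac1 and 1.10e-32 for Hdac2. The other three, at 6.85 to 124 kb, were weak in both lists, with the lowest Hdac1 value at 1.36e-10. Itga8, an integrin subunit of the mesenchyme that acts upstream of Gdnf, had 2 members 81.0 and 85.8 kb away, with Hdac1 values of 1.14e-41 and 3.84e-38.

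Tmem100 had members at 2.55 and 7.69 kb, with 9.37e-49 and 8.30e-42 for Hdac1 and 9.63e-13 and 6.90e-27 for Hdac2, and another at 68.5 kb. Cited2, a marker of uncommitted progenitors, had 6 members at 32.8 to 391 kb, the lowest at 5.31e-32 for Hdac1 and 4.14e-16 for Hdac2. Ncam1 had 3, Fgf9 and Slit2 had 2 each, and Dapl1, Eya4, Fras1, Meox2 and Pax2 had 1 each. No member was nearest to the other 17 listed genes, among them Six4, Dach1, Bmp7, Fgf10, Robo2, Hoxa11, Hoxc11 and Hoxd11. Among these, Dach1 had 1066 kb of territory and 3 Hdac1 islands without Hdac2, and Hoxd11 had 0.926 kb.

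Other lists were read in the same way. Of 21 renal stroma genes 11 (52.4%) had a nearest member, with a median territory of 225 kb and 3.79 members per Mb; Fat4 had 5, Ebf1 4 and Meis1 3. A 4 kb member 33.3 kb from Foxd1, the marker of stromal progenitors, had 1.93e-44 for Hdac1 and 2.30e-15 for Hdac2. The culture could hold such cells, and their part in the island lists was not tested. Signalling genes had a member in 17 of 40 cases (42.5%), with 5.10 per Mb. Examples are Spry2, a feedback inhibitor of FGF signalling, with 5, and Dusp6, Bmp4 and Id2 with 4 each.

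The Dusp6 member, 84.9 kb from this ERK phosphatase gene, had 4.80e-56 for Hdac1 and 1.20e-27 for Hdac2. Genes of committed nephron structures had a member in 7 of 30 cases (23.3%) at 1.65 members per Mb, with a median territory of 86.7 kb. Of their 14 members, 6 lay nearest to Hes1. The density was 2.05 per Mb over all genes and 1.60 over genes with 200 kb or more of territory. Hdac1 islands without Hdac2 stood at 4.82 per Mb at this list, against 3.83 over all genes. Mature nephron genes had 1 of 16 (6.25%, 1.06 per Mb, median territory 12.1 kb), a member 1.63 kb from Plce1 with 5.64e-18 for Hdac1. For ureteric bud genes the count was 6 of 20 (30%, 2.29 per Mb, median territory 60.5 kb), and a member 18.1 kb from Wnt11 had 2.07e-53 and 5.51e-12. Endothelium and blood genes had 4 of 16 (25%), at 3.72 members per Mb and a median territory of 65.8 kb. Distant lineage genes had 5 of 30 (16.7%), at 1.01 members per Mb and a median territory of 46.6 kb. Over all genes the share was 8.87% and the median territory 17.7 kb.

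Genes of the deacetylase complexes themselves had a nearest member in 2 of 30 cases (6.67%, 2.41 per Mb, median territory 13.4 kb). Ribosomal protein genes had 8 of 78 (10.3%, 2.87 per Mb, median territory 7.82 kb). The deacetylase and ribosomal shares were thus near the 8.87% over all genes. Cell cycle and fetal growth genes had 5 of 27 (18.5%, 4.31 per Mb, median territory 30.4 kb), where Hmga2 and Mycn had 4 each. Developmental transcription factor families had 68 of 260 (26.2%), at 2.95 members per Mb and a median territory of 59.7 kb. These genes were picked by symbol pattern alone, which also took in genes outside the families, such as Tbxa2r. Klf6 and Sall1 had 9 each and Sox4 had 8. A 3.4 kb member 2.90 kb from Sox4 had 3.59e-82 for Hdac1 and 5.46e-20 for Hdac2. The 3 lists with the highest shares, of stroma, progenitor and signalling genes, also had the longest median territories (225, 173 and 135 kb), and the part of territory length in these shares was not tested. Hdac1 islands without Hdac2 stood at 6.47, 7.24 and 10.1 per Mb at these lists, against 3.83 over all genes.

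**Figure D5:**
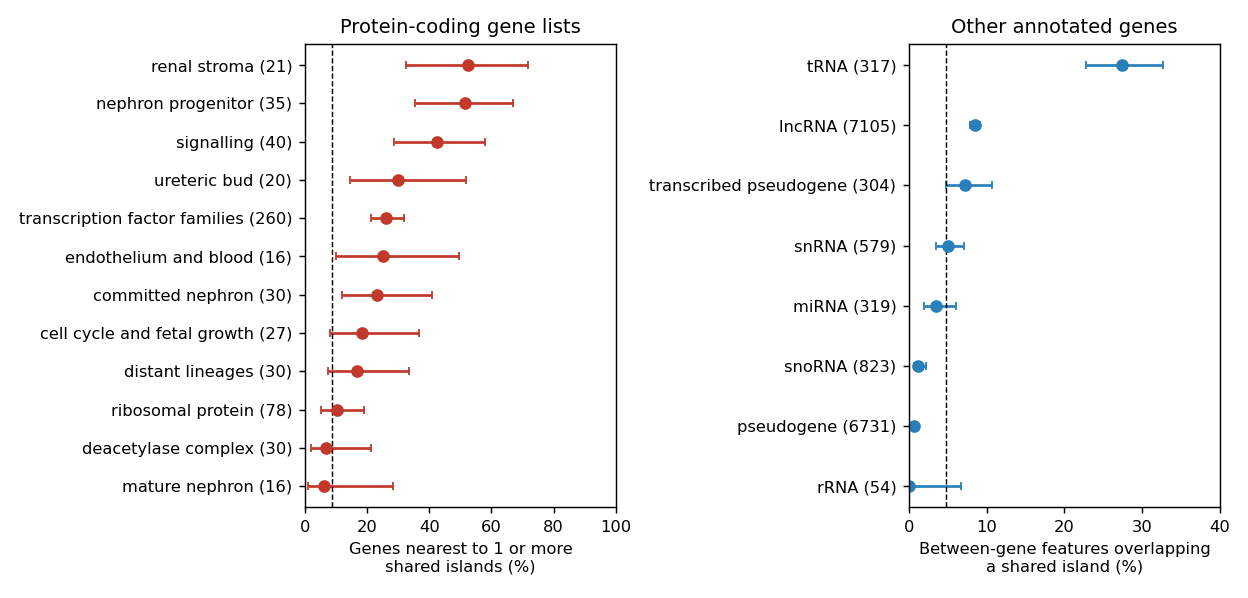
Left, percent of genes on each list that are nearest to 1 or more members, with 95% Wilson intervals and a dashed line at 8.87%, the share over all protein-coding genes. Right, percent of other annotated genes between protein-coding genes that overlap a member, with a dashed line at 4.81%, the share over all kinds. The tRNA genes stand at 27.4%, and a further 14.5% of them overlap an Hdac1 island without Hdac2, which is not drawn.

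Small RNA genes read by RNA polymerase III and the spliceosomal RNAs made up another group. Of 317 tRNA genes between protein-coding genes, 87 (27.4%, 22.8 to 32.6) overlapped a member, beside 4.81% over all kinds. A further 46 (14.5%) overlapped an Hdac1 island without Hdac2, beside 6.69% over all kinds, so a higher share was not particular to members. The 87 lay on 46 members, 23 of which held 2 or more, up to 5 on 1 member. These genes are thus not independent, and the interval is too narrow. Of the 87, 27 lay on chromosome 13 and 15 on chromosome 3. Every one of the 20 amino acid letters had a tRNA gene on a member, from 9 of 13 for proline to 1 of 54 for cysteine. Members with tRNA genes had a median Hdac1 value of 7.45e-42, beside 4.24e-16 over all members, and a median Hdac2 value of 1.07e-08, beside 4.48e-09. A 2.4 kb member 14.3 kb from Trim55 held 4 tRNA genes (1.63e-90 for Hdac1, 2.64e-18 for Hdac2).

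Genes for spliceosomal and related small nuclear RNAs overlapped members in 29 of 579 cases (5.01%), beside 4.81% over all kinds. Their median length was 107 bp, against 1659 bp over all kinds, and the part of length was not tested. The 27 members with such a gene were low in both lists, with medians of 1.56e-35 for Hdac1 and 1.63e-16 for Hdac2. All 6 members of the run between Eapp and Snx6 held such a gene, and so did all 4 of a run between Mreg and Pecr over 31.2 kb. Of 52 runs of 3 or more members, 7 held a tRNA or snRNA gene. Rn7sk, the RNA that restrains the elongation factor P-TEFb, lay on a member with 1.22e-35 for Hdac1 and 2.29e-04 for Hdac2. Rn7s2, an RNA of the signal recognition particle, lay on one with 2.37e-54 and 5.38e-17. These genes exist in near-identical copies, and how the authors placed reads among copies is unknown here, so values at single copies are uncertain.

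Pseudogenes overlapped members in 43 of 6731 cases (0.639%) and snoRNA genes in 10 of 823 (1.22%). Of the snoRNA genes, 4 lay on 3 members in the tandem copies next to Snurf, in an imprinted region. Those members were weak for Hdac1, with 2.55e-04, 0.0431 and 0.0535, and low in value for Hdac2, with 2.11e-60, 8.94e-40 and 1.29e-14. The members were 2.4, 3.6 and 4.2 kb wide. The Hdac2 values belong to wider islands, chr7:59857401-59897600, chr7:59730401-59745200 and chr7:59750201-59761600, and not to the members alone.

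At the limits of the selection, members of 4.8 kb near Reep3 and Rbx1 had Hdac1 values of 4.05e-84 and 1.46e-60, while islands of 5.0 kb near Ppara and Zfp949, just outside, had 7.74e-164 and 4.48e-151. Without the width limit 172 more islands would have qualified. The members closest to a gene lay 1010 bp from Rem1 (5.92e-34) and 1013 bp from Psmg3 (1.96e-35). The closest islands outside lay 991 bp from Dusp1 (5.31e-13) and 952 bp from Tlx3 (0.0192).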

How the data were processed

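Each line of a deposited list holds an island's position and 1 further number, read as the p-value or q-value that the authors' caller gave; which of these it is was not stated. Tools named in the submitters' processing notes, with no role given, are SICER, bedtools 2.17, SAMtools 1.3.1, BWA 0.7.5a and FastQC, and the build named is mm10. Read depth, background library and the caller's version and settings were not given in the sources used here. Each library was amplified from 500 pg of DNA for 12 cycles plus 1 to 3 more, per the labels' protocols. IgG and H3K4me3 controls were not analysed here. Starts in the files count from 0; positions here are 1-based.

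Overlap meant 1 bp or more, counted in Python and checked on simulated data, where 200 of 200 planted members were recovered and the overlap count matched that of bedtools. Genes, lncRNA promoters and miRNAs came from RefSeq tables of GRCm38.p6; the sequence tables were used for chromosomes other than 18, and no genome sequence was used. Distances run from island edge to gene span. With 1 library per antibody no test was run; medians, counts and 95% Wilson intervals are given.

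The members and the 12 gene lists were chosen with earlier results of these data known. The rule for naming took all members beside nephron progenitor genes and up to 4 per other list by Hdac1 value. It also took the 10 lowest in each list's value, the 5 farthest, the 10 genes with most members, up to 5 runs, and islands at each limit. Only some of these are given singly above, a choice made with their values known. Members on noncoding RNA genes and at Snurf, and the genes named with their counts of members, were chosen after their values were seen.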

Additional observations from a re-analysis of the deposited data

How the results depend on the processing

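Of 78 alternative values, 59 lay within the tolerance set, which was 1.5 times the reported value for counts and the 95% interval of the reported value for shares and medians. Counts within it still fell: reciprocal coverage of 50% gave 2105 islands, 1447 nearest genes and 42 members at nephron progenitor genes, and leaving out islands of the same outline gave 1998, 1362 and 41. With genes of any kind barred, 1317 genes were nearest to a member and 49 members lay nearest to nephron progenitor genes. With the upper 50% of each list, 1025 shared islands, 791 nearest genes and 31 members nearest to nephron progenitor genes were counted, the overlap share was 50.1% and the median distance 60.1 kb. With genes of any kind barred there were 1928 islands, the share was 33.7% and the distance 57.2 kb. The overlap share was 30.9% when 50% of the Hdac1 island had to be covered, 25.2% with reciprocal coverage, 36.5% with genes widened by 10 kb, 36.1% without the width limit, 26.9% without islands of the same outline, and 37.2% without islands of 800 bp or less, an alternative added after seeing the data. The median distance was 60.9 kb with genes widened by 5 kb, 74.1 kb by 10 kb, 55.4 kb without provisional genes, and 90.1 kb from island centre to gene start, where 10 nephron progenitor genes had a member in place of 18. Gene starts were held for 16457 of 20665 protein-coding genes, so the values from island centre to gene start leave out the other genes. The number of runs of 3 or more was 19 with gaps up to 5 kb and 98 up to 25 kb. No paired analysis was possible because each antibody had 1 library. Read depth is unknown, nearest genes are not shown to be targets, and values cannot be compared between lists.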
